A study of Homo sapiens with 12 samples.

Results

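The difference between 2 prostate cancer cell lines in their transcript response to erastin was measured in all 12 RNA-seq libraries of the series. The groups, with 3 libraries each, were LNCaP cells under erastin at 5 µmol/L, LNCaP cells under DMSO, PC3 cells under erastin at 5 µmol/L and PC3 cells under DMSO, the solvent. LNCaP is an androgen-sensitive line derived from a lymph node metastasis, and PC3 is an androgen-independent line derived from a bone metastasis. The labels give tissue prostate and genotype WT for every group, and the duration of exposure is not given in the sources used here. Nothing in the labels says whether the replicates of a group are separate cultures, so the p-values reflect the spread among these 12 libraries, and that spread may be technical.

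Genes were matched between the tables of the lines by identifier. Of 58503 matched genes, 11823 had at least 1 FPKM (fragments per length of gene and depth of library) in at least 3 of the 6 libraries of each line, and 10108 of them were protein coding. For each gene the response was the difference between erastin and DMSO on the log2(FPKM + 1) scale, and the interaction was the LNCaP response minus the PC3 response. A positive interaction means a higher response in LNCaP, which can be a rise in LNCaP, a fall in PC3 or both. A gene passed at a Benjamini-Hochberg adjusted p below 0.05 in 1 limma fit of the 12 libraries, and "rose", "fell", "higher" and "lower" are used of genes that passed. Each result was recomputed under 27 alternative settings, among them replicate number as a block, which allows for pairing of same-numbered libraries. Errors of log2 values are standard errors, and positions are on hg38.

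Erastin blocks system xc-, the membrane exchanger that brings cystine into the cell in return for glutamate. Cystine is reduced to cysteine, the limiting building block of glutathione, which the peroxidase GPX4 uses to detoxify lipid peroxides. When lipid peroxides build up in the presence of iron, cells die by ferroptosis. Cells short of cystine are known to engage the transcription factors NRF2, which drives antioxidant genes, and ATF4, which drives amino acid supply genes.

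The line labels fit most line markers. Summed FPKM of 10 LNCaP markers were 507 to 520.5 under erastin and 1250.0 to 1326 under DMSO in LNCaP, and 46.2 to 52.4 under erastin and 96.3 to 161.5 under DMSO in PC3, where HOXB13 made up most of the sum. For 10 PC3 markers the sums were 2.17 to 3.71 under erastin and 2.57 to 5.33 under DMSO in LNCaP, and 131 to 140.1 under erastin and 1145 to 1202 under DMSO in PC3. CTNNA1, which is known as homozygously deleted in the PC3 line, had reads in the libraries labelled PC3: CTNNA1 had 5.92 to 6.61 FPKM under erastin and 50.6 to 56.7 FPKM under DMSO. PC3 below means libraries with that label. Recovered reads numbered 13709558 to 17668554 per library. Genes above 0 FPKM numbered 30239 to 31311 under erastin and 25679 to 26144 under DMSO in PC3. In LNCaP they numbered 25055 to 26665 under erastin and 23476 to 26304 under DMSO. The cause of the higher number in PC3 under erastin, and its part in the PC3 responses, was not tested. PC3 DMSO replicate 1, and replicate 3 of both LNCaP groups, stood apart from the other replicates of their groups. Mitochondrial ribosomal RNA took 2.73% to 3.54% of reads under erastin and 1.67% to 2.46% under DMSO in LNCaP, and 1.95% to 2.18% under erastin and 0.628% to 0.944% under DMSO in PC3.

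The lines responded differently at a large share of expressed genes, and the response was wider in PC3. Of 11823 genes, 5248 (44.4%) passed the interaction test, 2528 (21.4%) with the higher response in LNCaP and 2720 (23.0%) with the lower one. In LNCaP, 1707 genes (14.4%) rose and 2075 (17.6%) fell, and in PC3, 3559 (30.1%) rose and 3961 (33.5%) fell. The range from the 10th to the 90th percentile of responses spanned 1.42 log2 units in LNCaP and 2.53 in PC3. Median responses over all genes were -0.011 in LNCaP and -0.064 in PC3, and the median interaction was 0.001. Across genes the responses of the lines correlated with a Pearson r of 0.29, a description over genes, which are not independent replicates.

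Both lines changed 2002 genes (16.9%) in the same direction, 902 higher and 1100 lower. Of these, 1331 did not pass the interaction test, and 671 did, 107 with the larger change in LNCaP and 564 with the larger change in PC3. Opposite directions were called for 737 genes (6.23%), 349 higher in LNCaP and lower in PC3 and 388 lower in LNCaP and higher in PC3. A like size was shown for 168 genes (1.42%), which moved by at least 1 in each line with the 95% interval of the interaction within -1 and 1; 41 of them rose and 127 fell. Among interaction genes, 615 passed in LNCaP alone, 3086 in PC3 alone and 139 in neither line. The count with opposite directions was 479 without LNCaP erastin replicate 1 and 1188 without PC3 DMSO replicate 1. Interaction calls numbered 6553 without PC3 DMSO replicate 1, 4996 without LNCaP erastin replicate 3 and 5437 without LNCaP DMSO replicate 3.

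**Figure D1:**
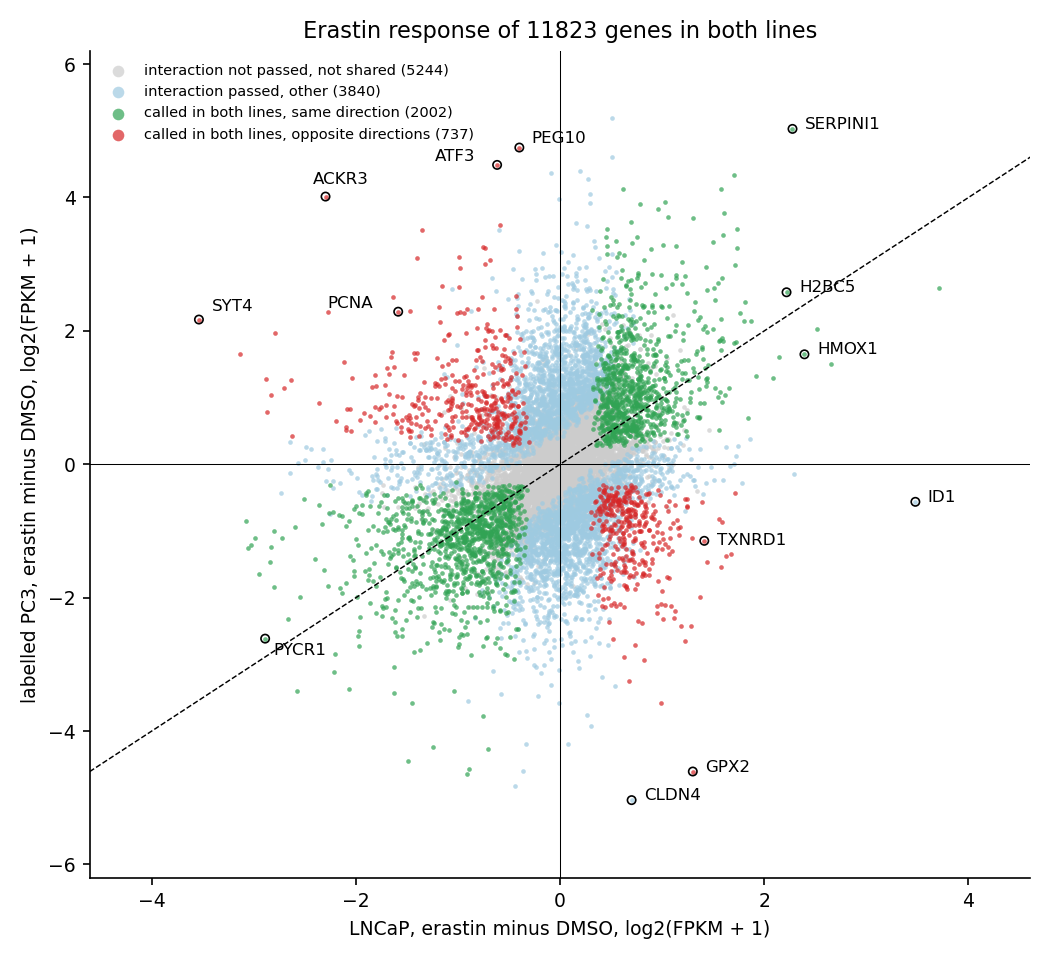
Each point is 1 of 11823 genes, with its log2 response to erastin in LNCaP on the horizontal axis and in PC3 on the vertical axis, coloured by class. The 2002 genes called in the same direction fill the lower left and upper right, the 737 with opposite directions fill the other quadrants, and the spread is wider along the PC3 axis.

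Genes of epithelial junctions and keratins fell in PC3 and mostly did not pass in LNCaP, so that their interactions were positive. Claudins, occludin and cadherin seal and join epithelial cells, and keratins KRT8, KRT18 and KRT19 form the filaments of simple epithelia. Of 26 such genes tested, 23 had a higher and 1 a lower response in LNCaP, against 44.4% of all genes passing in either direction. In PC3, 24 fell and 1 rose, and in LNCaP 6 rose and 2 fell; the LNCaP rises numbered 3 without LNCaP erastin replicate 1 and 2 without LNCaP erastin replicate 2. Median responses were 0.19 in LNCaP and -2.33 in PC3, and the median interaction was 2.18.

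In LNCaP, CLDN4 (chromosome 7, 73799542 to 73832693), a tight junction claudin, had 102, 93.6 and 119 FPKM under erastin, against 49.5, 67.3 and 78.2 under DMSO. In PC3, CLDN4 had 6.02, 5.49 and 3.98 FPKM under erastin, against 127, 239 and 259 under DMSO. The LNCaP erastin libraries all lay above those of DMSO, a response of 0.70 ± 0.27 that did not pass (limma, Benjamini-Hochberg adjusted p = 0.0624), while all PC3 erastin libraries lay far below DMSO, a response of -5.04 ± 0.27. The interaction of CLDN4 was 5.74 ± 0.38, with a 95% interval of 4.92 to 6.55 (limma, Benjamini-Hochberg adjusted p = 5.43e-07). KRT8 (chromosome 12, 52897187 to 52949954) showed the same shape, with 80.4, 70.3 and 94.7 FPKM in LNCaP under erastin, against 51.6, 64.3 and 85.1 under DMSO. In PC3, KRT8 had 29.2, 25.8 and 25.8 FPKM under erastin, against 337, 443 and 503 under DMSO. The LNCaP groups overlapped and the PC3 groups did not, and the interaction was 4.23 ± 0.30 (limma, Benjamini-Hochberg adjusted p = 8.4e-07).

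SPINT1, an inhibitor of membrane serine proteases, and ELF3, an epithelial transcription factor, rose in LNCaP and fell in PC3, with responses of 0.98 and 0.68 in LNCaP and -3.59 and -3.25 in PC3. CLDN7, EPHA1, an ephrin receptor, KRT18 and KRT19 fell in PC3, with responses of -4.82, -4.19, -4.59 and -3.75, and none passed in LNCaP, where responses ranged from -0.44 to 0.26. LAD1, an anchoring filament protein, fell in both lines, with responses of -1.24 in LNCaP and -4.23 in PC3. The gene with the lower response in LNCaP was GRHL1, a grainyhead transcription factor, which rose in PC3 by 1.32. ESRP1, an epithelial splicing regulator, fell alike in both lines, with responses of -0.83 in LNCaP and -0.96 in PC3, with an interaction of 0.14 (95% interval -0.27 to 0.54).

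CTNNA1, the catenin that ties cadherin junctions to actin, moved with this group: LNCaP had 55.5 to 58.7 FPKM under erastin and 35.7 to 38.1 FPKM under DMSO, and the PC3 values stand above. Of 10 stromal fibroblast markers, 1 averaged at least 1 FPKM in each LNCaP group, 4 in PC3 under erastin and 3 in PC3 under DMSO, and POSTN was at 0 in all 12 libraries. Their summed FPKM were 2.55 to 3.11 under erastin and 1.45 to 1.70 under DMSO in LNCaP, and 12.8 to 14.6 under erastin and 8.81 to 13.5 under DMSO in PC3. Among the 10 PC3 line markers, VIM, the mesenchymal filament vimentin, was itself lower under erastin in PC3, with 13.3 to 15.3 FPKM against 45.1 to 48.4 under DMSO. In bulk RNA, fewer cells of a type and less RNA per cell cannot be told apart, and the part of other cells or of CTNNA1 in the epithelial difference was not tested.

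**Figure D2:**
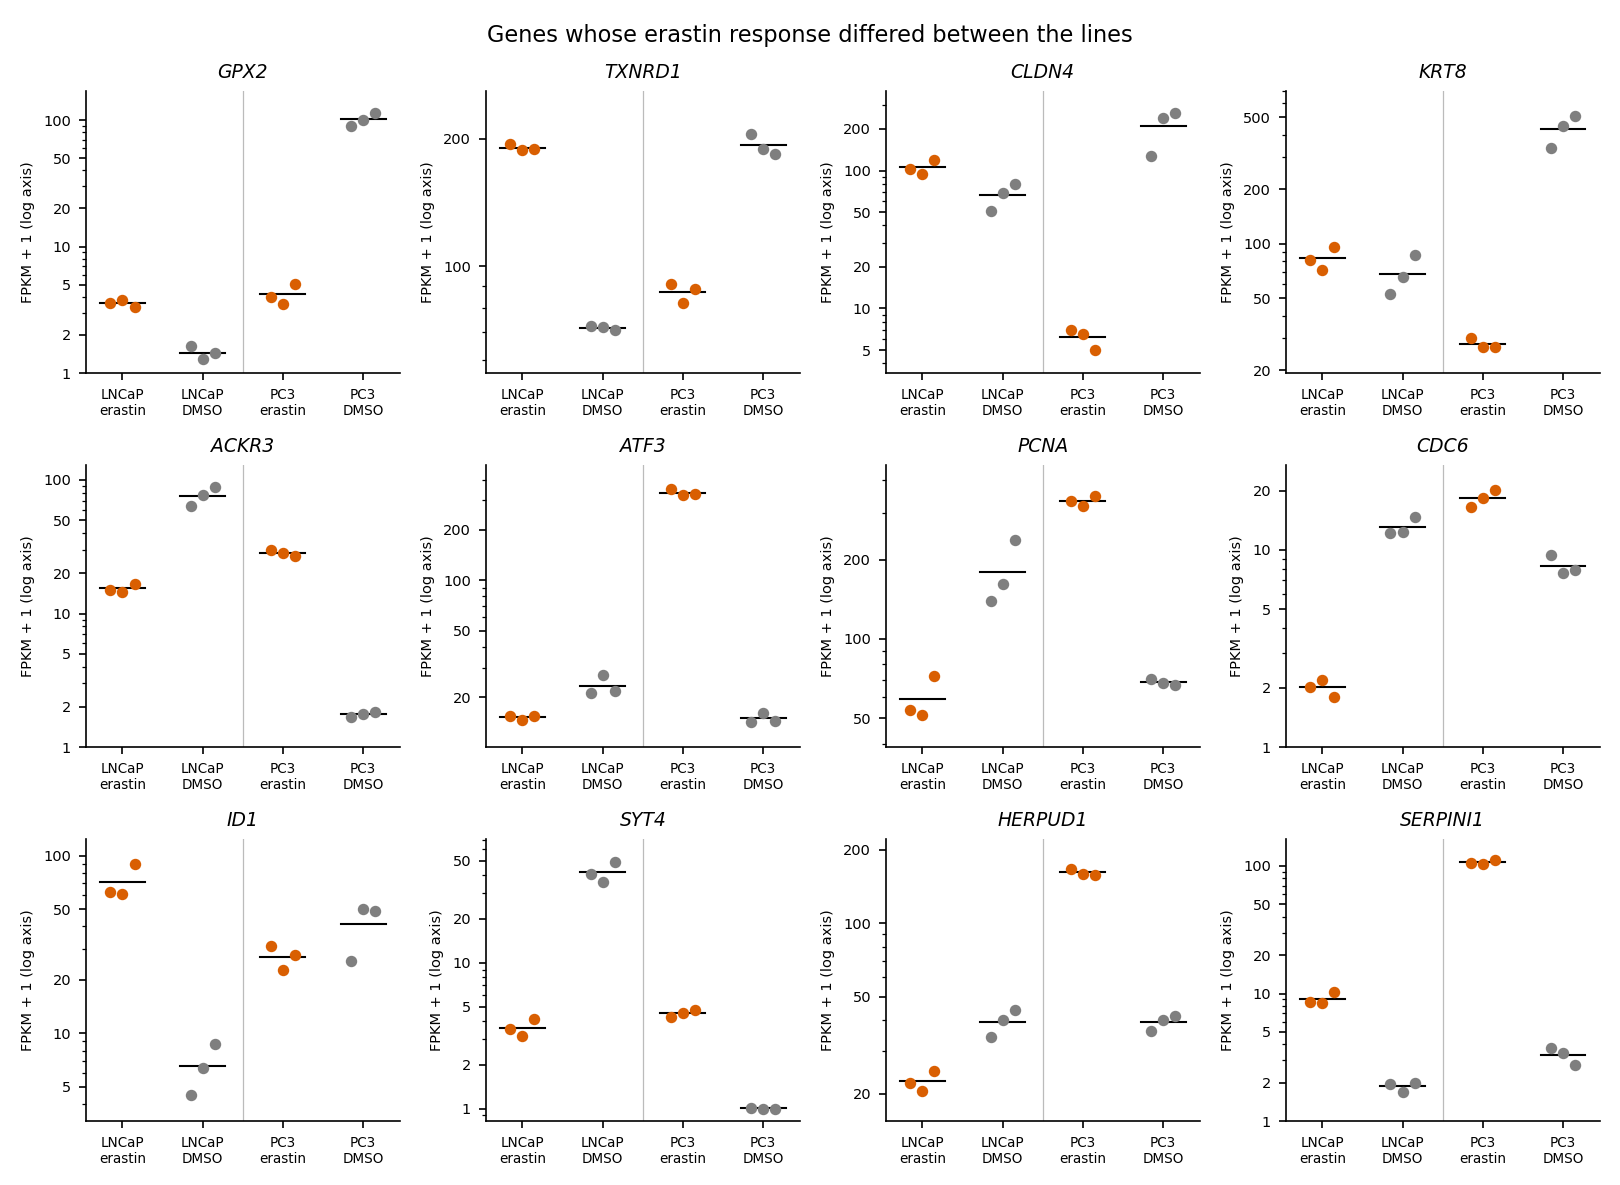
FPKM + 1 on a log axis for 12 genes, 1 panel each, with the 3 libraries of LNCaP erastin, LNCaP DMSO, PC3 erastin and PC3 DMSO as points from left to right and a bar at the group mean. GPX2, TXNRD1, CLDN4 and KRT8 drop under erastin in PC3, whereas ACKR3, ATF3, PCNA, CDC6, SYT4 and HERPUD1 are lower under erastin in LNCaP and higher in PC3.

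Antioxidant genes controlled by NRF2 parted the lines. They encode enzymes that regenerate thioredoxin, make NADPH and glutathione, degrade heme and reduce quinones and carbonyls. Of 27 NRF2 targets tested, 18 had a higher and 0 a lower response in LNCaP (limma; 44.4% of all genes passed in either direction), and the 9 others did not pass. In LNCaP 12 rose and 0 fell, and in PC3 4 rose and 15 fell; with replicate number as a block, 2 fell in LNCaP, or 3 with the block in LNCaP alone. Median responses were 0.47 in LNCaP and -0.57 in PC3, and the median interaction was 1.01.

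GPX2, a glutathione peroxidase of the digestive epithelium, is listed with the glutathione genes and is not among these 27. In LNCaP, GPX2 (chromosome 14, 64939152 to 64942905) had 2.596, 2.76 and 2.33 FPKM under erastin, against 0.624, 0.294 and 0.437 under DMSO. In PC3, GPX2 had 2.99, 2.51 and 4.102 FPKM under erastin, against 89.01, 99.7 and 113 under DMSO. The groups did not overlap in either line and pointed in opposite directions, so that the interaction of 5.91 ± 0.22 was the largest positive one among protein-coding genes that passed with separated groups (95% interval 5.43 to 6.38; limma, Benjamini-Hochberg adjusted p = 8.53e-09). In LNCaP only the erastin libraries reached 1 FPKM, so the filter fixed the separation of GPX2 there in advance.

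In LNCaP, TXNRD1 (chromosome 12, 104215779 to 104350307), the cytosolic thioredoxin reductase, had 193, 188 and 188 FPKM under erastin, against 71.2, 70.96 and 69.9 under DMSO. In PC3, TXNRD1 had 89.7, 81.2 and 87.6 FPKM under erastin, against 205, 188 and 184 under DMSO. It rose in LNCaP by 1.41 ± 0.13 and fell in PC3, with a response of -1.15 ± 0.13 and no overlap of groups in either line, an interaction of 2.56 ± 0.18 (limma, Benjamini-Hochberg adjusted p = 8.21e-07). SQSTM1, an autophagy receptor, also rose in LNCaP, by 1.59, and fell in PC3, with a response of -0.86. NQO1, a quinone reductase, rose in LNCaP by 1.62 and did not pass in PC3 (it did with the block in LNCaP alone, limma, Benjamini-Hochberg adjusted p = 0.049), where it had 31.8, 29.7 and 28.2 FPKM under erastin, against 24.1, 24.4 and 25.6 under DMSO. ME1, the NADPH-producing malic enzyme, fell in PC3, with a response of -2.32, and did not pass in LNCaP, with a response of 0.21.

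HMOX1 (chromosome 22, 35380361 to 35394207), the heme-degrading enzyme, rose in both lines. In LNCaP, HMOX1 had 105, 98.9 and 122 FPKM under erastin, against 17.7, 19.6 and 22.3 under DMSO. In PC3, HMOX1 had 25.3, 18.3 and 17.8 FPKM under erastin, against 4.55, 6.17 and 6.798 under DMSO. Its interaction of 0.74 ± 0.25 passed (limma, Benjamini-Hochberg adjusted p = 0.0303), but no longer did, with values of 0.64 to 0.77, without any 1 of the libraries other than LNCaP DMSO replicate 3, LNCaP erastin replicate 2, PC3 DMSO replicate 1 and PC3 erastin replicate 1. It did not pass either with a pseudocount of 0.1, voom or the block in both lines (adjusted p = 0.0564). OSGIN1, an oxidative stress response gene, rose by 2.08 in LNCaP and 1.30 in PC3, and its interaction of 0.79 did not pass, but did in 4 of the 27 alternatives, among them the fit without PC3 DMSO replicate 1, where it was 1.08.

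The antioxidant response element, the site NRF2 binds with small MAF proteins, has the core TGACNNNGC, which was searched on both strands. In RefSeq windows of 300 bases around gene starts (GRCh38.p14), found for 8505 of the 11823 genes, the core occurred in 15.6% of windows, in 15.6% of those with a higher and 15.6% of those with a lower response in LNCaP, and in 6 of 19 windows of NRF2 targets (31.6%). TXNRD1, 1 of these 6, and GPX2, which was counted among the glutathione genes and not the NRF2 targets, are shown because they moved in opposite directions in the lines, with the 250 bases before the start, read 5′ to 3′ on the gene's strand, and the core in capitals. The window of GPX2 is chr14:64942746-64942995, minus strand, and that of TXNRD1 is chr12:104215529-104215778, plus strand.
GPX2: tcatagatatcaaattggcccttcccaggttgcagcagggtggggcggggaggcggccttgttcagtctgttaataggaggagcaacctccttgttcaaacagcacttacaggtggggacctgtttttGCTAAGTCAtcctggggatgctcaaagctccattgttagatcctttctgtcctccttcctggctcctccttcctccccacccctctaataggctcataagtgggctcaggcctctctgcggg
TXNRD1: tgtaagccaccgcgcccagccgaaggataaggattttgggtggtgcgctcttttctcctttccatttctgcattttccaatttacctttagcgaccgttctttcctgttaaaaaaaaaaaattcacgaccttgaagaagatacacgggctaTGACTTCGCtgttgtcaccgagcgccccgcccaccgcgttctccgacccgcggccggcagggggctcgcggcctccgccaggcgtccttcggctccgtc
The core begins 122 bases before the RefSeq start of GPX2, where it lies on the opposite strand, and 99 bases before that of TXNRD1. Gene coordinates printed here come from the deposited values, and their starts can differ from RefSeq starts. Those of GPX2 extend past its RefSeq start, and the core lies inside them. The core can overlap an AP-1 site, searched as TGANTCA and found in 3.87% of all windows, and the cyclic AMP response element TGACGTCA was found in 3.61%. A match is a run of letters and was not tested as a binding site.

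Genes of cystine uptake and glutathione had interactions of both signs. Of 27 tested, 10 had a higher and 5 a lower response in LNCaP (55.6%, against 44.4% of all genes), with a median interaction of 0.47. The 5 became 3 without any 1 of LNCaP erastin replicates 1 and 2, PC3 DMSO replicates 2 and 3 and PC3 erastin replicate 3. SLC7A11, the transporter subunit of system xc-, had 26.9, 30.8 and 25.2 FPKM in LNCaP under erastin, against 32.2, 23.5 and 23.6 under DMSO. In PC3, SLC7A11 had 57.4, 63.9 and 59.9 FPKM under erastin, against 53.2, 33.8 and 27.1 under DMSO. The LNCaP groups overlapped and the PC3 groups did not, but the interaction of -0.64 ± 0.31 did not pass (95% interval -1.31 to 0.038). It passed in 3 of the 27 alternatives, at -0.90 without PC3 DMSO replicate 1 among them.

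Glutathione synthesis and use gave contrasts on both sides. GCLC, the catalytic subunit of the first enzyme of glutathione synthesis, rose in both lines, by 0.84 in LNCaP and 1.47 in PC3, and its interaction was -0.63 ± 0.17 (limma, Benjamini-Hochberg adjusted p = 0.00966). GCLM, the other subunit of that enzyme, rose in LNCaP by 0.80 and had -0.39 in PC3 without passing. Its interaction was 1.19 (limma, Benjamini-Hochberg adjusted p = 0.0022), of the opposite sign to that of GCLC. CTH, which makes cysteine from cystathionine, fell in LNCaP, with a response of -1.18, and rose in PC3 by 0.76. CBS, the enzyme before CTH, fell in both, with responses of -1.21 in LNCaP and -1.51 in PC3. MGST1, a membrane glutathione transferase, fell in PC3, with a response of -2.25, and did not pass in LNCaP, with a response of 0.039. CHAC1, which degrades glutathione, fell in PC3, with a response of -1.67, and had -0.66 in LNCaP without passing; its interaction of 1.01 ± 0.38 passed by a narrow margin (limma, Benjamini-Hochberg adjusted p = 0.0465) and did not pass, at 0.77 to 1.10, without any 1 of the libraries other than LNCaP DMSO replicate 3 and PC3 DMSO replicate 1, nor with the block in LNCaP alone (adjusted p = 0.0604). GPX4, the lipid hydroperoxide reductase, had an interaction of 0.52 ± 0.40 that did not pass (95% interval -0.36 to 1.40).

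Iron and lipid genes were mixed. Of 23 iron genes, 6 had a higher and 3 a lower response in LNCaP, with a median interaction of 0.58 (39.1%, near the 44.4% of all genes), and of 19 genes of lipid peroxidation and its suppressors, 5 had a higher and 6 a lower one (57.9%). TFRC, the transferrin receptor that imports iron, had 14.1, 15.4 and 12.7 FPKM in LNCaP under erastin, against 19.8, 16.8 and 16.97 under DMSO. In PC3, TFRC had 219, 209 and 226 FPKM under erastin, against 114, 93.05 and 83.9 under DMSO. TFRC thus rose in PC3, did not pass in LNCaP and had an interaction of -1.50 ± 0.21 (limma, Benjamini-Hochberg adjusted p = 0.000132). ACO1, an iron regulatory protein, rose in LNCaP by 0.51 and fell in PC3, with a response of -0.73. FTH1, the ferritin heavy chain, had an interaction of 0.76 ± 0.53 that did not pass; it passed with array weights and, at 1.27, without PC3 DMSO replicate 1. ACSL4, which loads polyunsaturated fatty acids into membrane lipids, rose in LNCaP by 0.58 and fell in PC3, with a response of -0.98; the LNCaP rise did not pass with the block in LNCaP alone (limma, Benjamini-Hochberg adjusted p = 0.065). GCH1, the first enzyme of tetrahydrobiopterin synthesis, and COQ8A, a coenzyme Q biosynthesis factor, rose in PC3 by 1.74 and 1.09; in LNCaP GCH1 had -0.19 without passing and COQ8A fell, with a response of -0.74.

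Most genes of the amino acid response controlled by ATF4 fell in both lines, and some moved apart. Of 35 genes tested, 29 fell and 0 rose in LNCaP, 25 fell and 8 rose in PC3, and 23 fell in both. Over all genes, 17.6% fell in LNCaP, 33.5% fell and 30.1% rose in PC3, and 9.30% fell in both. The interaction was higher in LNCaP for 9 and lower for 10 (54.3%, against 44.4% of all genes), with a median of -0.21 and median responses of -1.18 in LNCaP and -1.02 in PC3. The 9 became 5 without LNCaP DMSO replicate 1 or LNCaP erastin replicate 1, and 4 without PC3 DMSO replicate 2, PC3 erastin replicate 2 or PC3 erastin replicate 3. Of 20 cytosolic aminoacyl-tRNA synthetases, which charge tRNAs with amino acids, 14 fell in both lines, 2 had a higher and 3 a lower interaction (25.0%), the 2 becoming 5 with the block in LNCaP alone, and the medians were -0.90 in LNCaP and -0.99 in PC3.

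Falls of like size were found among biosynthetic enzymes. PYCR1 and PSAT1 were chosen among genes with separated groups in both lines and an interaction interval within -1 and 1, so both traits were given. In LNCaP, PYCR1 (chromosome 17, 81932384 to 81942412), the last enzyme of proline synthesis, had 17.1, 14.2 and 14.7 FPKM under erastin, against 109.8, 129.5 and 120.0 under DMSO. In PC3, PYCR1 had 12.9, 8.92 and 8.91 FPKM under erastin, against 47.8, 69.99 and 89.4 under DMSO. No groups overlapped, and the responses of -2.89 ± 0.21 in LNCaP and -2.61 ± 0.21 in PC3 differed by -0.27 ± 0.30 (95% interval -0.94 to 0.39; limma, Benjamini-Hochberg adjusted p = 0.492). PSAT1 (chromosome 9, 78297125 to 78330093), of serine synthesis, had 92.95, 88.3 and 108 FPKM in LNCaP under erastin, against 391, 404 and 491 under DMSO. In PC3, PSAT1 had 76.9, 78.9 and 79.9 FPKM under erastin, against 341, 292 and 279 under DMSO. Here too no groups overlapped, and the interaction was -0.21 ± 0.22 (95% interval -0.68 to 0.27). AARS1 and VARS1, the alanyl- and valyl-tRNA synthetases, fell, with responses of -1.53 and -1.43 in LNCaP and -1.75 and -1.56 in PC3; the interactions of 0.23 and 0.13 did not pass, although that of VARS1 did with array weights and, at 0.41, without PC3 DMSO replicate 1. WARS1 and GARS1 fell in both lines unequally, with responses of -0.79 for WARS1 and -1.70 for GARS1 in LNCaP, and -1.96 and -0.47 in PC3.

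Among stress factors of this group, ATF3 and DDIT3 went opposite ways in the lines. In LNCaP, ATF3 (chromosome 1, 212565334 to 212620777), a stress-induced transcription factor, had 14.5, 13.6 and 14.4 FPKM under erastin, against 20.1, 26.1 and 20.9 under DMSO. In PC3, ATF3 had 348, 323 and 329 FPKM under erastin, against 13.2, 15.1 and 13.5 under DMSO. The groups were separated in both lines, lower under erastin in LNCaP and far higher in PC3, with an interaction of -5.11 ± 0.19 (95% interval -5.51 to -4.70; limma, Benjamini-Hochberg adjusted p = 8.53e-09). DDIT3, the stress factor CHOP, and ASNS, asparagine synthetase, fell in LNCaP, with responses of -0.77 and -0.67, and rose in PC3 by 1.55 and 1.79. PPP1R15A, which reopens translation after stress, rose in PC3 by 2.25 and had -0.43 in LNCaP without passing. ATF4 itself had an interaction of -0.82 ± 0.33 that did not pass. It passed in 11 of the 27 alternatives, among them quantile and protein-coding scaling, voom, the fits without LNCaP DMSO replicate 1 (-1.0) or LNCaP erastin replicate 3 (-0.97), and replicate number as a block in both lines (limma, Benjamini-Hochberg adjusted p = 0.0414) or in LNCaP alone (adjusted p = 0.0199). GDF15, a stress cytokine, fell in both, with responses of -1.62 in LNCaP and -3.43 in PC3.

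ATF4 with C/EBP partners binds the C/EBP-ATF response element, searched as TGATGNAA on both strands. It was found in 1.5% of the 8505 windows and in 5 of 28 windows of this group (17.9%), those of CHAC1, SLC7A1, SLC3A2, ASNS and ATF3. ATF3 (chr1:212565157-212565406, plus strand) and ASNS (chr7:97872409-97872658, minus strand) are shown as the pair that rose in PC3 and fell in LNCaP, with the letters found in capitals.
ATF3: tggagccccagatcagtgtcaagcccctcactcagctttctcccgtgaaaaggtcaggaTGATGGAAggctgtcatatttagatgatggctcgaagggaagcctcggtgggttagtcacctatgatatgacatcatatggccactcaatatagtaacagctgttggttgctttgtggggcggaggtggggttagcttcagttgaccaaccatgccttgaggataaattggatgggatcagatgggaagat
ASNS: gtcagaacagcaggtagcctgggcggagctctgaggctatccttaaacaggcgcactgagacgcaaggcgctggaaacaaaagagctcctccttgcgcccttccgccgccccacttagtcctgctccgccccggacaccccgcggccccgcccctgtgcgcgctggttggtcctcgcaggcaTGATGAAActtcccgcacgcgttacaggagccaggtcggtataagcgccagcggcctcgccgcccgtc
CHAC1, which fell in PC3, also holds the letters.

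Endoplasmic reticulum chaperones and genes of the unfolded protein response that passed had mostly the lower response in LNCaP. Of 25 tested, 12 had a lower and 1 a higher interaction (52.0%, near the 44.4% of all genes), 0 rose and 6 fell in LNCaP (17.6% of all genes fell there), and 10 rose and 3 fell in PC3, with medians of -0.19 in LNCaP and 0.21 in PC3. In LNCaP, HERPUD1 (chromosome 16, 56932142 to 56944864), of endoplasmic reticulum-associated degradation, had 21.2, 19.6 and 23.7 FPKM under erastin, against 33.3, 39.2 and 43.3 under DMSO. In PC3, HERPUD1 had 166, 159 and 157 FPKM under erastin, against 35.2, 39.1 and 40.7 under DMSO. Neither line's groups overlapped, the directions were opposite, and the interaction was -2.85 ± 0.20 (limma, Benjamini-Hochberg adjusted p = 8.07e-07). SEL1L, of the same degradation complex, rose in PC3 by 1.75 and had -0.25 in LNCaP without passing. PDIA4, a disulfide isomerase, and XBP1, an unfolded protein response factor, fell in both lines, with responses of -0.75 and -1.10 in LNCaP and -1.02 and -0.62 in PC3. The interaction of XBP1, -0.49, did not pass, except with a block in LNCaP alone (limma, Benjamini-Hochberg adjusted p = 0.0432), protein-coding scaling or array weights. Heat shock proteins had 10 lower and 2 higher interactions of 23 tested (52.2%), with a median of -0.69. HSPA1A, the inducible cytosolic chaperone, rose in PC3 by 3.14 and CRYAB, a small heat shock protein, by 2.60, while in LNCaP CRYAB rose by 0.39 and HSPA1A by 0.63. The LNCaP rise of HSPA1A did not pass with the block in LNCaP alone (limma, Benjamini-Hochberg adjusted p = 0.0711).

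Genes of DNA replication and mitosis fell in LNCaP and were split in PC3. Over all genes, 17.6% fell in LNCaP, and 33.5% fell and 30.1% rose in PC3, so the PC3 split lay near the shares of all genes. Of 41 genes of DNA replication and nucleotide synthesis, 40 fell and 0 rose in LNCaP, and 17 fell and 12 rose in PC3, with 16 falling in both and the 12 that rose moving in opposite directions in the lines. The response was lower in LNCaP for 37 of 41 and higher for 0 (limma; 44.4% of all genes passed in either direction), with median responses of -1.64 in LNCaP and -0.21 in PC3 and a median interaction of -1.72. Of 32 genes of G2/M and mitosis, 32 fell in LNCaP, and 10 fell and 12 rose in PC3, the falls numbering 5 without PC3 erastin replicate 1 and 6 without PC3 erastin replicate 2. Of these, 29 had a lower and 1 a higher response in LNCaP, with a median interaction of -1.55. The PC3 median of the mitotic genes was -0.026, and it was above 0, at 0.18 and 0.082, under protein-coding and voom scaling, and at 0.027 to 0.055 with the gene length trend removed or without PC3 DMSO replicate 1, PC3 DMSO replicate 3 or PC3 erastin replicate 2.

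In LNCaP, PCNA (chromosome 20, 5114953 to 5126626), the sliding clamp of DNA polymerases, had 52.5, 50.3 and 71.1 FPKM under erastin, against 138, 160.0 and 237 under DMSO. In PC3, PCNA had 332, 319.8 and 347 FPKM under erastin, against 69.6, 67.0 and 65.6 under DMSO. Groups were separated in both lines, lower under erastin in LNCaP and higher in PC3, with an interaction of -3.87 ± 0.29 (95% interval -4.50 to -3.25; limma, Benjamini-Hochberg adjusted p = 1.2e-06). CDC6 (chromosome 17, 40287879 to 40304657), which loads the replicative helicase, had 1.02, 1.199 and 0.803 FPKM in LNCaP under erastin, against 11.2, 11.3 and 13.7 under DMSO. In PC3, CDC6 had 15.6, 17.4 and 19.04 FPKM under erastin, against 8.43, 6.62 and 6.902 under DMSO. It moved the same way as PCNA, with an interaction of -3.85 ± 0.19 (limma, Benjamini-Hochberg adjusted p = 1.19e-07).

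Other chromatin replication genes showed both patterns. FAM111B, ASF1B, a histone chaperone, and ATAD2, a chromatin ATPase, had responses of -3.13, -2.79 and -2.28 in LNCaP and 1.65, 1.96 and 2.28 in PC3. UHRF1, which maintains DNA methylation, and CDT1, a licensing factor, fell in both lines and more in LNCaP, with responses of -2.95 and -2.84 in LNCaP and -1.65 and -1.47 in PC3. CDK1, the mitotic kinase, and CDC25C, the phosphatase that activates it, fell in LNCaP, with responses of -2.64 and -1.53, and rose in PC3 by 1.27 and 1.34. MKI67, the proliferation marker, fell in both lines, with responses of -1.68 in LNCaP and -0.86 in PC3, and its interaction of -0.81 did not pass. It passed in 6 of the 27 alternatives, among them the fit without LNCaP DMSO replicate 3, where it was -1.12, and those with replicate number as a block in both lines (limma, Benjamini-Hochberg adjusted p = 0.0148) or in LNCaP alone (adjusted p = 0.0056). CDC25B was the mitotic gene with the higher response in LNCaP, with responses of -0.81 in LNCaP and -1.66 in PC3. FANCI (chromosome 15, 89243949 to 89317261), of the Fanconi DNA repair pathway, fell in both lines: LNCaP had 2.69, 2.81 and 2.72 FPKM under erastin, against 19.7, 16.4 and 15.2 under DMSO, and PC3 had 2.38, 2.43 and 2.62 FPKM under erastin, against 15.02, 10.9 and 8.91 under DMSO. Its interaction of -0.44 ± 0.23 did not pass, and did in 3 of the 27 alternatives, at -0.63 without PC3 DMSO replicate 1 among them.

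E2F factors switch on replication genes through sites searched as TTTGGCGC and TTTCCCGC on both strands. These occurred in 4.04% of the 8505 windows, in 6.12% of those with a lower and 3.19% of those with a higher response in LNCaP, in 17 of 35 replication windows (48.6%) and in 1 of 25 mitotic windows (4.0%). PCNA (chr20:5126623-5126872, minus strand) and RFC3 (chr13:33817899-33818148, plus strand), a subunit of the complex that loads PCNA, chosen after its values were seen, are shown as replication genes with the letters before the start.
PCNA: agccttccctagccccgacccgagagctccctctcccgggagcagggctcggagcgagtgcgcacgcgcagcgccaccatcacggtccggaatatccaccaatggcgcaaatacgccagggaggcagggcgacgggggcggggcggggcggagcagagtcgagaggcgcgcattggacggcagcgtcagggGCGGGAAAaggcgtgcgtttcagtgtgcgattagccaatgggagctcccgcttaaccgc
RFC3: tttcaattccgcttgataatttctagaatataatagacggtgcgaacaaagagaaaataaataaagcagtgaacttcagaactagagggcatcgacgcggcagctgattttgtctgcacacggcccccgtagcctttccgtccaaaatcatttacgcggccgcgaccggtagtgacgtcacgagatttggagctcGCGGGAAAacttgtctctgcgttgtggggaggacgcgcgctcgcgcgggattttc
RFC3 had responses of -2.63 in LNCaP and 0.43 in PC3, and its match lies 55 bases before the start, against 59 for PCNA. PCNA and RFC3 both rose in PC3. Other replication genes with the letters, such as UHRF1 and CDT1, fell there, with responses of -1.65 and -1.47.

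**Figure D3:**
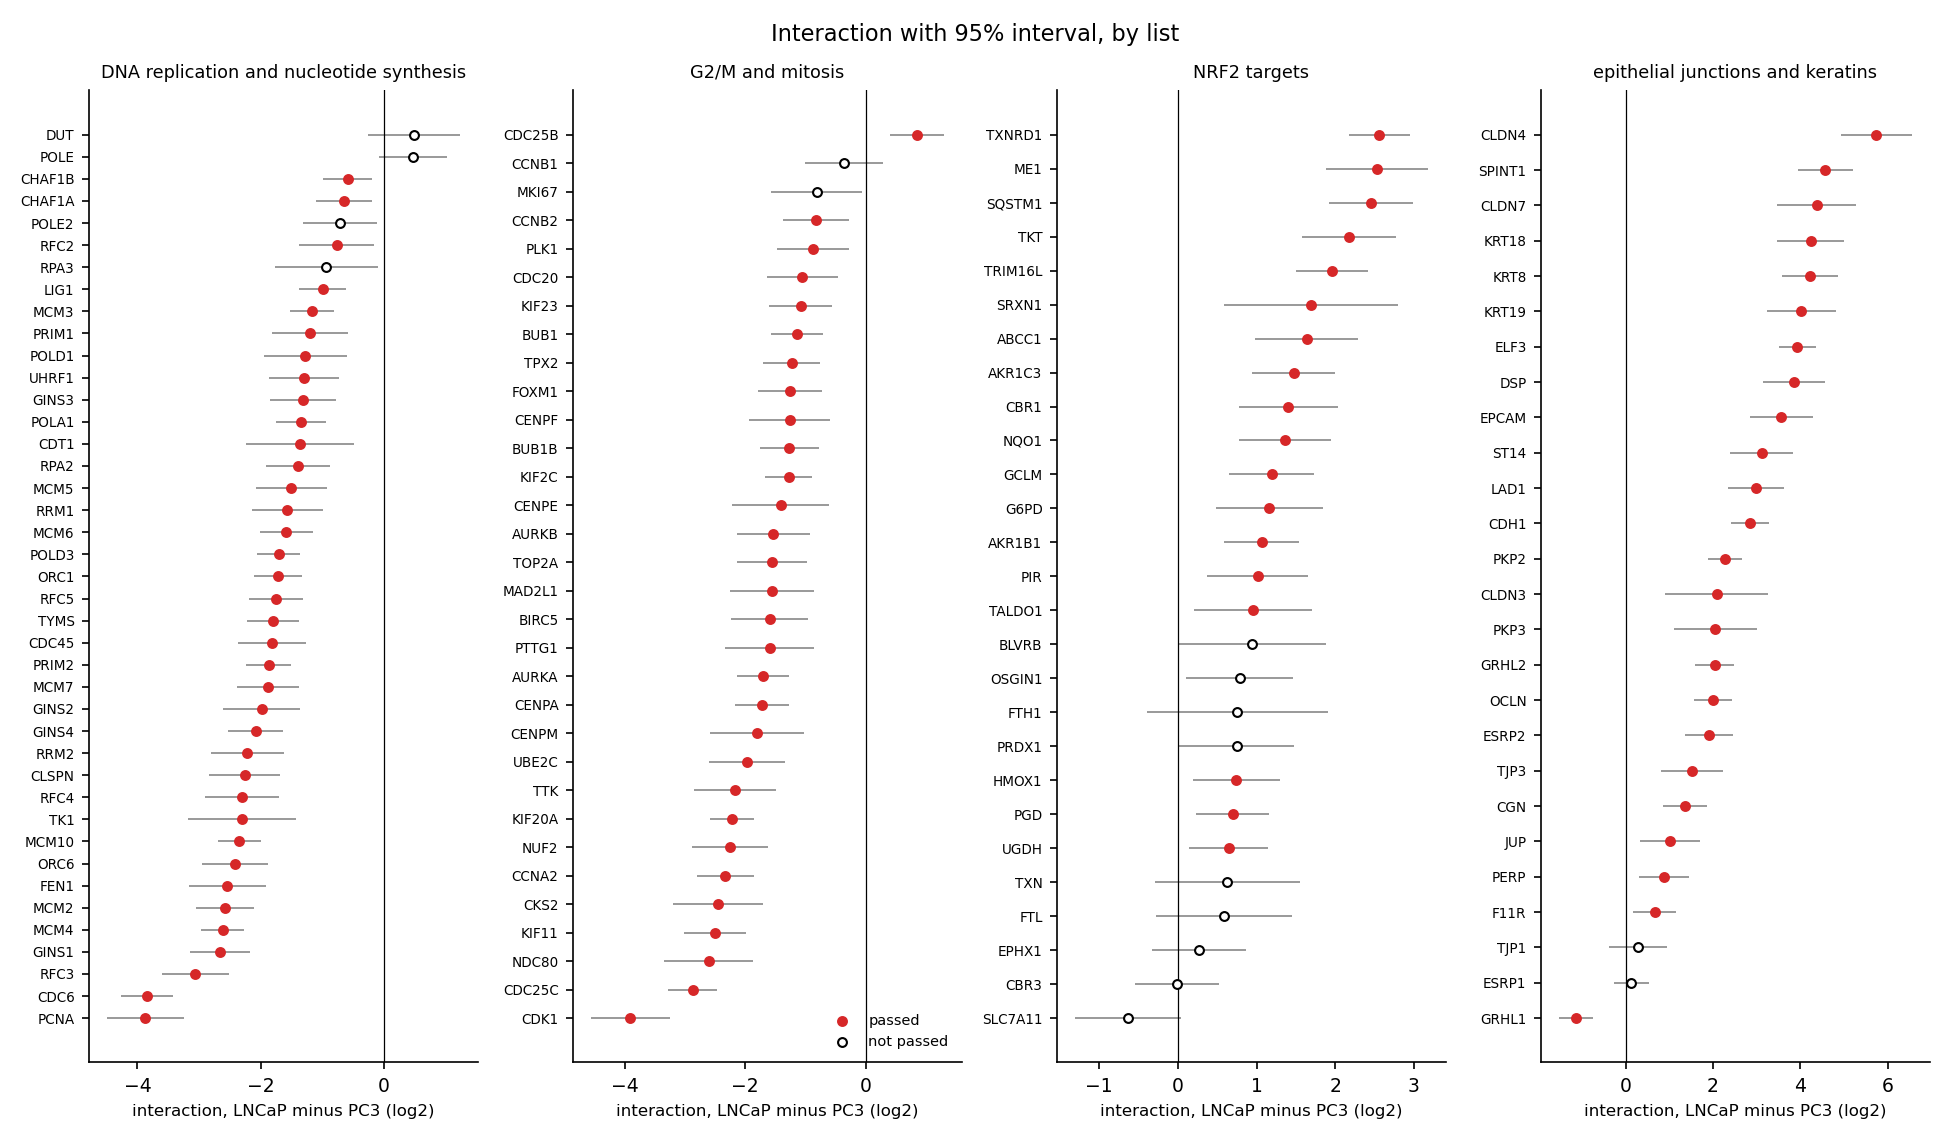
Interaction (LNCaP response minus PC3 response, log2) with its 95% interval for every tested member of the replication, mitosis, NRF2 and epithelial groups, filled red where it passed and open where it did not. Most replication and mitosis genes lie left of 0, with 37 of 41 and 29 of 32 passing on that side, and most NRF2 targets and epithelial genes lie right of 0, with 18 of 27 and 23 of 26 passing on that side. CDC25B passed right of 0 at 0.86 and GRHL1 left of it at -1.13.

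The most negative interaction, among protein-coding genes that passed with separated groups, belonged to ACKR3 (chromosome 2, 236567787 to 236582354), an atypical chemokine receptor that clears CXCL12. In LNCaP, ACKR3 had 14.1, 13.5 and 15.7 FPKM under erastin, against 62.5, 75.6 and 88.3 under DMSO. In PC3, ACKR3 had 28.9, 27.5 and 26.1 FPKM under erastin, against 0.692, 0.769 and 0.824 under DMSO. All erastin libraries lay below DMSO in LNCaP and above it in PC3, with an interaction of -6.31 ± 0.19 (95% interval -6.73 to -5.89; limma, Benjamini-Hochberg adjusted p = 5.45e-09). In PC3 only the erastin libraries reached 1 FPKM, so the filter fixed the separation of ACKR3 there in advance. Of the 10 chemokine and G protein-coupled receptor genes tested, 5 had a higher and 3 a lower response in LNCaP (80.0%, against 44.4% of all genes). PTGER4, a prostaglandin E2 receptor, rose in PC3 by 2.95 and had -0.18 in LNCaP without passing. CXCL16, a membrane chemokine, F2RL1, a protease-activated receptor, and ADORA2B, an adenosine receptor, fell in PC3, with responses of -2.91, -2.93 and -2.86, against -0.32, -0.45 and -0.88 in LNCaP, where CXCL16 did not pass, nor F2RL1 with the block in both lines (limma, Benjamini-Hochberg adjusted p = 0.0657).

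Neuronal and imprinted genes also stood among the largest differences. In LNCaP, SYT4 (chromosome 18, 43267892 to 43277535), a synaptotagmin of secretory vesicles, had 2.505, 2.13 and 3.12 FPKM under erastin, against 39.6, 34.6 and 47.9 under DMSO. In PC3, SYT4 had 3.28, 3.56 and 3.75 FPKM under erastin, against 0.0166, 0 and 0 under DMSO. It was lower under erastin in LNCaP and higher in PC3, where 2 of the 3 DMSO libraries were listed at 0, with an interaction of -5.71 ± 0.20 (limma, Benjamini-Hochberg adjusted p = 8.53e-09). Only the erastin libraries of PC3 reached 1 FPKM, so the filter fixed the separation of SYT4 in that line. PEG10, a retrotransposon-derived imprinted gene, had 1.02, 0.865 and 0.675 FPKM in LNCaP under erastin, against 1.57, 1.42 and 1.33 under DMSO. In PC3, PEG10 had 388, 381 and 397 FPKM under erastin, against 16.1, 13.2 and 11.5 under DMSO, and the interaction was -5.15 ± 0.19. VGF, a secreted neuropeptide precursor, had -1.35 in LNCaP and 3.51 in PC3. MYLIP, a ubiquitin ligase, and ARRDC3, an alpha-arrestin, rose in PC3 by 4.39 and 4.36, and did not pass in LNCaP, with 0.19 and -0.092.

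SERPINI1 (chromosome 3, 167735243 to 167825568), the serine protease inhibitor neuroserpin, rose in both lines and more in PC3. In LNCaP, SERPINI1 had 7.56, 7.47 and 9.20 FPKM under erastin, against 0.939, 0.676 and 1.002 under DMSO. In PC3, SERPINI1 had 105, 103 and 110.0 FPKM under erastin, against 2.75, 2.405 and 1.76 under DMSO. No groups overlapped, the responses were 2.28 ± 0.14 in LNCaP and 5.03 ± 0.14 in PC3, and the interaction was -2.75 ± 0.20 (limma, Benjamini-Hochberg adjusted p = 9.86e-07). HBEGF, a ligand of the EGF receptor, and SLC30A1, a zinc exporter, likewise rose by 0.82 and 0.78 in LNCaP and by 3.07 and 3.91 in PC3.

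Genes that rose in LNCaP and fell in PC3 with at least 1 log2 unit each way included DBNDD1, TMEM158, TNFRSF12A, the receptor of the cytokine TWEAK, CMTM8 and ADD3, a subunit of the membrane skeleton. Their responses were 1.58, 1.44, 1.37, 1.63 and 1.67 in LNCaP, and -1.54, -1.47, -1.99, -1.37 and -1.34 in PC3. Groups were separated in both lines for all 5. In LNCaP, ADD3 had 16.5, 17.8 and 17.04 FPKM under erastin, against 5.44, 4.19 and 4.495 under DMSO. In PC3, ADD3 had 2.82, 2.92 and 3.23 FPKM under erastin, against 12.1, 8.39 and 7.38 under DMSO.

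Inhibitors of DNA binding, which respond to BMP signals, rose in LNCaP and differed among themselves in PC3. In LNCaP, ID1 (chromosome 20, 31605283 to 31606515) had 61.3, 60.3 and 88.8 FPKM under erastin, against 3.47, 5.35 and 7.702 under DMSO. In PC3, ID1 had 29.9, 21.7 and 26.5 FPKM under erastin, against 24.6, 49.01 and 47.6 under DMSO. The LNCaP groups were separated, the PC3 groups overlapped, and the interaction was 4.04 ± 0.42 (limma, Benjamini-Hochberg adjusted p = 1.29e-05). ID2 (chromosome 2, 8678845 to 8684461), of the same family, rose in both lines alike: LNCaP had 12.6, 12.01 and 13.8 FPKM under erastin, against 3.48, 3.48 and 3.71 under DMSO, and PC3 had 105, 95.6 and 97.8 FPKM under erastin, against 28.2, 27.6 and 25.4 under DMSO. Its interaction was -0.24 ± 0.16 (95% interval -0.59 to 0.11; limma, Benjamini-Hochberg adjusted p = 0.239). ID3 and SMAD7, a feedback inhibitor, rose more in LNCaP, by 1.84 and 1.24 in LNCaP and 0.70 and 0.42 in PC3. BAMBI, a decoy receptor, fell in PC3, with a response of -2.69, and had 0.38 in LNCaP without passing. Of 13 genes of this group, 8 had a higher and 1 a lower response in LNCaP (69.2%, against 44.4% of all genes), with a median interaction of 0.85. Only 5 of them averaged at least 5 FPKM in each line, and over these the median was -0.24, with 2 higher and 1 lower.

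Most histone genes rose in both lines. Of 20 genes that encode histones, 14 rose in both lines, against 7.63% of all genes, with medians of 1.43 in LNCaP and 1.82 in PC3. The interaction was higher for 3 and lower for 8 (55.0%, against 44.4% of all genes). Reads of near-identical histone copies may be split between genes, so single values are uncertain. In LNCaP, H2BC5 (chromosome 6, 26158146 to 26171349) had 50.03, 42.9 and 53.7 FPKM under erastin, against 7.98, 10.5 and 10.8 under DMSO. In PC3, H2BC5 had 134, 132 and 138 FPKM under erastin, against 24.7, 18.3 and 22.7 under DMSO. Groups were separated in both lines and the interaction of -0.36 ± 0.22 did not pass (95% interval -0.85 to 0.13). H1-4, a linker histone, rose more in PC3, by 1.71 in LNCaP and 4.34 in PC3, and H2BC21 and H2BC4 rose more in LNCaP, by 2.65 and 3.71 in LNCaP and 1.51 and 2.65 in PC3.

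Some autophagy and lysosome genes rose in both lines. Of 32 tested, 14 rose and 0 fell in LNCaP, 14 rose and 4 fell in PC3, and 8 rose in both, with medians of 0.41 in LNCaP and 0.34 in PC3; without LNCaP erastin replicate 1 the LNCaP rises numbered 9 and the shared ones 5. Over all genes, 14.4% rose in LNCaP, 30.1% rose in PC3 and 7.63% rose in both. The interaction was higher in LNCaP for 5, or 8 with replicate number as a block in LNCaP alone, and lower for 2 (21.9% in the main fit, against 44.4% of all genes). NEU1 (chromosome 6, 31857659 to 31862822), a lysosomal sialidase, had 29.01, 24.8 and 32.8 FPKM in LNCaP under erastin, against 8.604, 10.5 and 11.4 under DMSO. In PC3, NEU1 had 70.99, 64.5 and 64.8 FPKM under erastin, against 22.5, 22.8 and 26.2 under DMSO. The groups were separated in both lines and the responses differed by -0.03 ± 0.21 (95% interval -0.48 to 0.42). GABARAPL1, an autophagosome protein, rose by 1.43 in LNCaP and 1.28 in PC3, with an interaction interval of -0.31 to 0.60. MAP1LC3B, another, rose more in PC3, by 0.69 in LNCaP and 2.09 in PC3. TP53INP2, an autophagy scaffold, rose in LNCaP by 2.29 and did not pass in PC3, with -0.14.

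The largest shared rises of like size by the smaller response also included NAP1L3, C12orf49, TUBA1A, a tubulin, MRNIP and MT1G, a zinc-binding metallothionein, with 1.80, 1.56, 1.56, 1.45 and 1.70 in LNCaP and 2.14, 1.86, 1.85, 1.49 and 1.82 in PC3. In LNCaP, MT1G had 53.5, 45.2 and 69.6 FPKM under erastin, against 11.1, 16.01 and 24.2 under DMSO. In PC3, MT1G had 7.05, 8.37 and 9.44 FPKM under erastin, against 2.196, 1.38 and 1.33 under DMSO. Groups were separated in both lines, which was a condition for choosing the shared genes. The interaction of C12orf49 passed in 3 of the 27 alternatives, at -0.37 without PC3 DMSO replicate 1 among them. The largest shared falls further included RANBP1, a nuclear transport regulator, STK39, a kinase of ion cotransporters, CDCA4, SLC19A1, the folate carrier, and ADM2, a peptide hormone, with -1.99, -1.86, -2.15, -1.80 and -2.10 in LNCaP and -1.99, -2.09, -1.86, -1.83 and -1.78 in PC3.

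**Figure D4:**
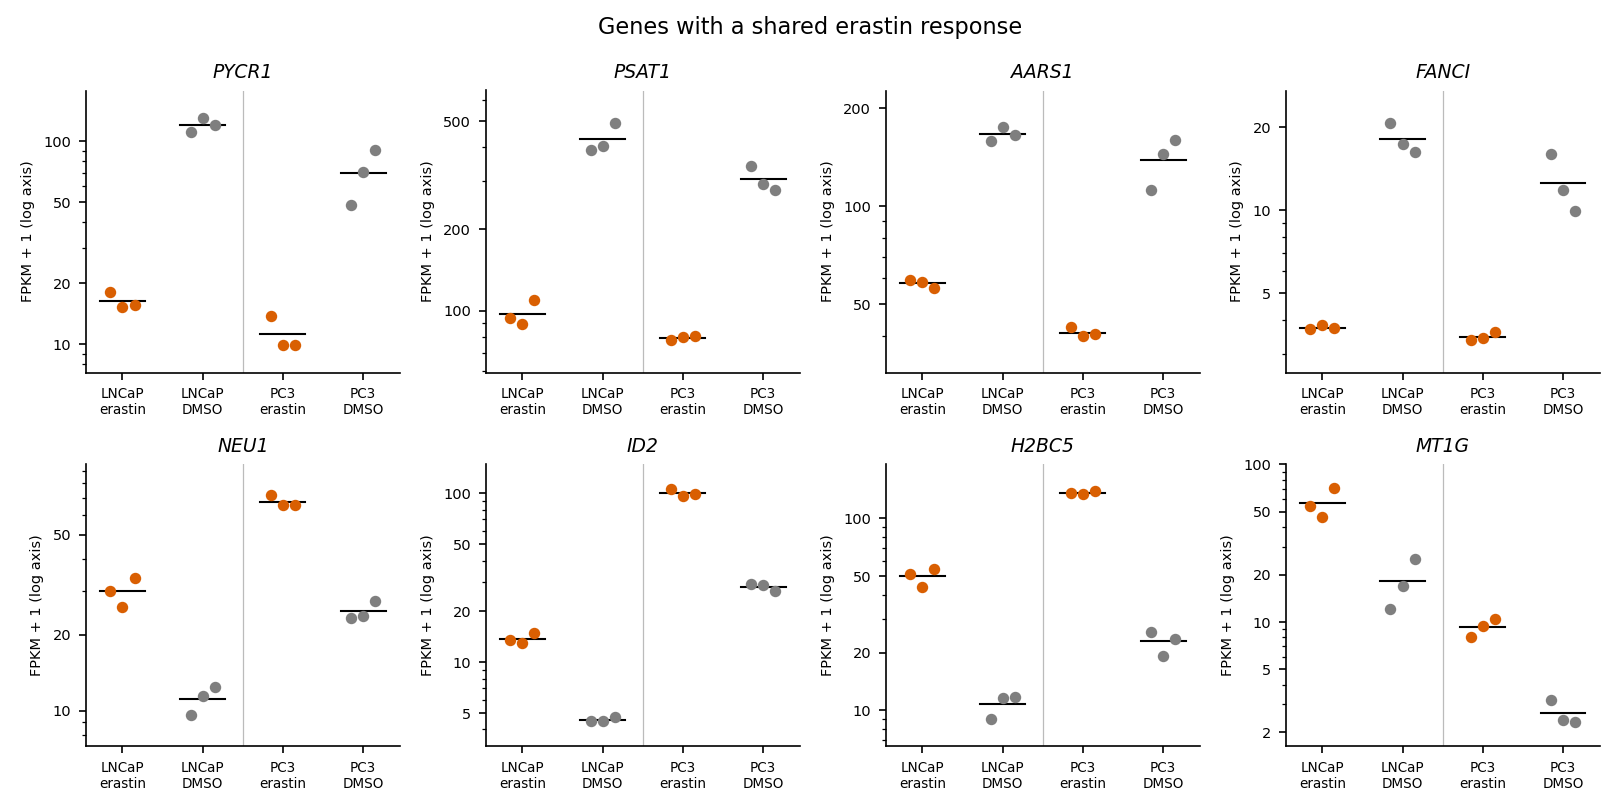
FPKM + 1 on a log axis for 8 genes that moved the same way in both lines, with the 3 libraries of LNCaP erastin, LNCaP DMSO, PC3 erastin and PC3 DMSO as points from left to right and a bar at the group mean. PYCR1, PSAT1, AARS1 and FANCI are lower and NEU1, ID2, H2BC5 and MT1G higher under erastin in both lines, with no overlap of groups. Lack of overlap in both lines was a condition for choosing these genes, apart from AARS1.

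Cholesterol and glycolysis genes mostly fell in PC3. Of 25 genes of cholesterol synthesis and uptake, 10 had a higher and 0 a lower response in LNCaP (40.0%, near the 44.4% of all genes), and 17 fell and 1 rose in PC3, where 33.5% of all genes fell. The medians were -0.14 in LNCaP, or 0.003 with protein-coding scaling, and -0.83 in PC3. SREBF2, the regulator of the pathway, fell, with responses of -0.78 in LNCaP and -2.36 in PC3. FDFT1, squalene synthase, fell in PC3, with a response of -1.85, and had 0.047 in LNCaP without passing. Of 23 genes of fatty acid synthesis, 12 had a higher and 6 a lower interaction (78.3%). SREBF1, their regulator, fell, with responses of -0.75 in LNCaP, which did not pass with the block in LNCaP alone (limma, Benjamini-Hochberg adjusted p = 0.052), and -3.77 in PC3. FADS2, a desaturase, fell in both lines, with responses of -1.43 in LNCaP and -1.27 in PC3. Of 22 glycolysis genes, 14 had a higher and 5 a lower interaction (86.4%), and 16 fell in PC3. GAPDH, a glycolytic enzyme often used as a reference transcript, had 744, 673 and 807 FPKM in LNCaP under erastin, against 583, 682 and 892 under DMSO. In PC3, GAPDH had 232, 215 and 234 FPKM under erastin, against 852, 908 and 875 under DMSO. It fell in PC3 and overlapped in LNCaP, with an interaction of 2.01 ± 0.25 (limma, Benjamini-Hochberg adjusted p = 6.05e-05), while PFKFB3, which makes an activator of glycolysis, rose in PC3 by 2.63 and had 0.26 in LNCaP.

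Few cytosolic ribosomal proteins passed the interaction test, and their counts depended on the fit. Of 78 tested, 2 had a higher and 2 a lower interaction (5.13%, against 44.4% of all genes), 49 fell in PC3, and the medians were -0.44 in LNCaP and -0.89 in PC3. The count with a higher response in LNCaP depended on single libraries: it was 23 without LNCaP DMSO replicate 3, 10 without PC3 DMSO replicate 1, 6 without LNCaP erastin replicate 2, 1 without LNCaP erastin replicate 1 or PC3 erastin replicate 2 and 0 without any 1 of the other 7. With quantile scaling it was 32. With replicate number as a block it was 16, and 18 with the block in LNCaP alone, so that 24.4% and 26.9% passed in either direction. The falls in LNCaP numbered 4, against 15 and 27 with these blocks, and the falls in both lines 2, against 11 and 22. A p that misses the threshold does not show that these genes acted alike, and the median interaction of 0.44 was above the 0.001 of all genes. Of 27 ribosome biogenesis factors, 13 fell in both lines, against 9.30% of all genes. The interaction was higher for 3, or 5 with the block in LNCaP alone, and lower for 8 (40.7% in the main fit). NOP56, a nucleolar protein, fell in LNCaP, with a response of -0.87, and rose in PC3 by 0.89, and NOB1, which trims ribosomal RNA, fell, with responses of -1.50 in LNCaP and -1.90 in PC3.

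Signalling and cell-cycle arrest genes held contrasts of both signs. CDKN1A, the inhibitor of cyclin-dependent kinases p21, had 35.2, 32.03 and 36.8 FPKM in LNCaP under erastin, against 48.8, 56.6 and 56.6 under DMSO. In PC3, CDKN1A had 138, 114 and 122 FPKM under erastin, against 24.9, 42.5 and 46.1 under DMSO. It was lower under erastin in LNCaP, where it did not pass with the block in both lines (adjusted p = 0.061), higher in PC3, and had an interaction of -2.36 ± 0.29 (limma, Benjamini-Hochberg adjusted p = 5.12e-05). CCNG1, another target of p53, fell, with responses of -1.37 in LNCaP and -1.78 in PC3. Of 27 p53 targets, 10 had a lower and 5 a higher interaction (55.6%, against 44.4% of all genes). The 5 became 3 without LNCaP DMSO replicate 1, LNCaP erastin replicate 1, PC3 DMSO replicates 2 or 3, or PC3 erastin replicates 2 or 3. PC3 is known to lack functional p53 and LNCaP to carry the wild-type gene.

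EGR1, an early growth response factor, fell in PC3, with a response of -3.47, and had -0.21 in LNCaP, whereas JUNB, an AP-1 subunit, rose in PC3 by 2.49 and had -0.022 in LNCaP. TGFA, an EGF receptor ligand, rose in LNCaP by 0.63 and fell in PC3, with a response of -2.14, and EGFR, the receptor, fell in PC3, with a response of -2.21. DUSP4, a phosphatase of ERK, fell alike, with responses of -1.76 in LNCaP and -1.69 in PC3 (95% interval of the interaction -0.44 to 0.30). LIF, a cytokine, fell, with responses of -1.04 in LNCaP and -3.39 in PC3, and TNFAIP3, an inhibitor of NF-kB, rose in PC3 by 2.59. The androgen-responsive genes tested in both lines numbered 17, of which 9 fell in both, against 9.30% of all genes. Of the 17, 4 had a higher and 6 a lower interaction (58.8%, against 44.4% of all genes). TMPRSS2, an androgen-responsive protease gene, fell, with responses of -1.92 in LNCaP and -1.60 in PC3, FKBP5, a chaperone of steroid receptors, fell in LNCaP, with a response of -1.37, and rose in PC3 by 0.57, and HPGD, which degrades prostaglandins, fell, with responses of -1.45 in LNCaP and -3.58 in PC3. KLK3, prostate-specific antigen, had at most 0.0536 FPKM in PC3 and was therefore not tested for an interaction.

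**Figure D5:**
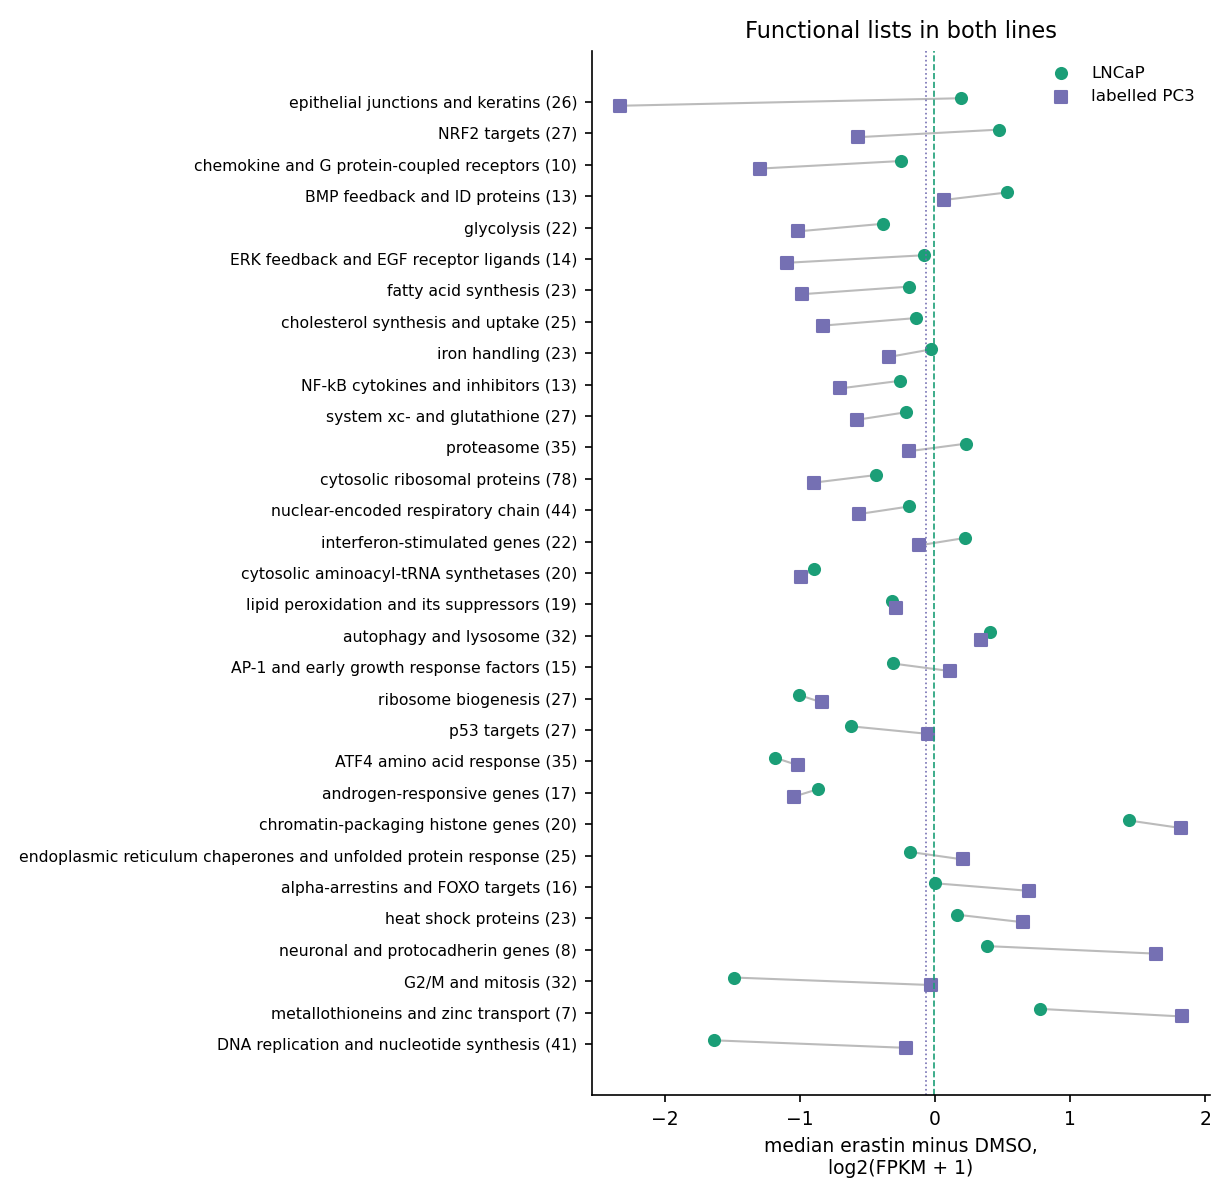
Median log2 response to erastin of 31 gene groups in LNCaP and in PC3, 1 row per group, with a dashed and a dotted line at the medians of all genes tested. The lines lie close for the ATF4 group, the synthetases and the histones, and far apart for epithelial, NRF2, replication and mitosis genes.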

How the data were processed

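Per the labels' protocols, TRIzol was used for extraction and an Illumina TruSeq RNA kit for libraries of total RNA. HISAT2 version 2.0.5 and genome build hg38 are named in the submitters' processing notes, and the counting tool and its strand setting are not given in the sources used here. Reads of overlapping, antisense or near-identical genes may therefore be misassigned. The authors deposited FPKM values in 1 table per line. Whole reads could be recovered from the FPKM steps for 100% of values within a tolerance of 0.1 reads. The tables hold 58735 (LNCaP) and 61221 (PC3) genes from different annotation releases. Among matched genes, 5107 have another symbol and 14428 another length, so responses were formed within each table and levels were not tested between lines.

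Values were analysed as log2(FPKM + 1), which understates changes of low genes. A gene under 1 FPKM in every library of 1 treatment of a line was tested only if all 3 libraries of the other treatment reached 1 FPKM. For such a gene the filter fixed the separation of groups in that line. Limma version 3.58.1 in R version 4.3.3 fitted the 4 groups with a variance trend, two-sided, with Benjamini-Hochberg adjustment over 11823 genes. Replicates of every pair differed by more than sampling noise, with a lowest chi-square per degree of freedom of 4.18. Replicate numbers come from the titles. Between erastin and DMSO libraries with the same number, deviations from group means had correlations of 0.303, 0.393 and 0.786 in LNCaP and of -0.487, -0.0693 and -0.410 in PC3 for replicates 1, 2 and 3. Across numbers in LNCaP, erastin replicate 2 correlated more with DMSO replicate 1 (0.673) than with its own number. Erastin replicate 3 had -0.692 and -0.448 with DMSO replicates 1 and 2. The LNCaP correlations thus set replicate 3 apart and do not show that replicates 1 and 2 are paired by number. The main fit used no block, so its values do not treat the numbers as pairs in either line. Alternative fits took the numbers as pairs in both lines or in LNCaP alone. These blocked fits moved the 4 counts over all genes by less than 1.5 times.

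The gene groups (31 functional lists and 6 marker lists) and their members were chosen with earlier results of these data known. Genes were named by a rule: the 10 highest and 10 lowest interactions with separated groups, the 8 highest and 8 lowest shared changes, the 5 largest opposite changes each way, up to 6 members of each list, and 20 genes whatever their result. RFC3 and GCLM were added after their values were seen. AIFM2 and KLK3 were taken by the rule but did not reach 1 FPKM in enough libraries of both lines, and not every gene the rule takes is described. Promoter windows come from RefSeq (GRCh38.p14), and HMOX1, KRT18, KRT19, ACKR3, PEG10, FAM111B, PYCR1 and SLC7A11 were not matched. Alternatives covered the pseudocount (0.1 and 0.5), filters, scaling, the variance prior, array weights, each line alone, voom on recovered reads, gene length, the replicate block and each library left out. The block in LNCaP alone was added after seeing the data. Plots were drawn with matplotlib version 3.10.9.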

Additional observations from a re-analysis of the deposited data

Results flagged for a closer look

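The lines differed in their response at 5248 of 11823 genes by the limma interaction test, and 737 genes were called in opposite directions. Single genes with a tested difference and the largest values are given here as interactions (LNCaP response minus PC3 response, log2). Among the highest were GPX2 at 5.91, SPINT1 at 4.57 and ELF3 at 3.93, each higher under erastin in LNCaP and lower in PC3. Among the lowest were ACKR3 at -6.31, SYT4 at -5.71, PEG10 at -5.15, ATF3 at -5.11, VGF at -4.86, FAM111B at -4.78, ASF1B at -4.75 and ATAD2 at -4.56, each lower under erastin in LNCaP and higher in PC3. The expression filter fixed the direction of GPX2 in LNCaP, and of ACKR3 and SYT4 in PC3. The genes with the largest opposite changes that were higher under erastin in LNCaP also included TNFRSF12A at 3.36, DBNDD1 at 3.12, ADD3 at 3.01, CMTM8 at 2.998 and TMEM158 at 2.90.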

How the results depend on the processing

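Of 159 named genes that passed the interaction, 127 kept their call under each of the 27 alternatives that tested them, and 2 changed sign under any: HSPB8, whose main interaction was 0.58, at -0.87 with a pseudocount of 0.1 and -2.35 with voom, and TUBB3, whose main interaction was -0.86, at 0.95 with voom. Without a filter on low values 9719 interactions passed, and with a mean of at least 5 FPKM 2476, with 1102 genes in the same direction, 330 in opposite directions and 109 of like size, as fewer genes were tested. Array weights gave 9298, 5167, 2614 and 285 for these 4 counts; the cause was not tested. With each library left out in turn, interaction calls ranged from 4501 to 6553, same directions from 1404 to 2757, opposite directions from 479 to 1188 and like sizes from 129 to 195. Replicate number as a block gave 5469 interaction calls in both lines and 5906 in LNCaP alone, and the pairing changed none of the 4 counts over all genes by over 1.5 times; some group counts moved by more, such as 16 and 18 cytosolic ribosomal proteins with the higher response in LNCaP under these blocks, against 2 without a block. The share of interaction calls with the higher response in LNCaP was 48.17%, and 44.28% to 51.19% under scaling to protein-coding totals and array weights with the same genes. With protein-coding scaling the all-gene median was 0.114 in LNCaP and 0.119 in PC3, and with voom it was 0.108 in LNCaP. The medians of the epithelial, NRF2, replication, ATF4, synthetase and histone groups kept their sign in both lines and in the interaction under the alternatives run. Depth limits genes near 1 FPKM, where the pseudocount sets much of the response.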

Other observations

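Interferon-stimulated genes and zinc genes were not described above. Of 22 interferon-stimulated genes, 5 had a higher and 1 a lower response in LNCaP (27.3%, against 44.4% of all genes). IFIT2 rose in both lines, with responses of 1.44 in LNCaP and 1.29 in PC3, and IFIT3 rose in LNCaP, with 0.84, and fell in PC3, with -0.71. OAS3 fell in both, with -1.42 in LNCaP and -1.36 in PC3. Of 7 metallothionein and zinc transport genes, 1 had a higher and 4 a lower interaction (71.4%, against 44.4% of all genes). MT1F rose in LNCaP, with 1.25, and did not pass in PC3, with -0.14, and SLC39A10, a zinc importer, fell in LNCaP, with -2.15, and did not pass in PC3, with -0.28.

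The alpha-arrestin and FOXO target group had 2 higher and 8 lower interactions of 16 (62.5%, against 44.4% of all genes). BCL6, a transcriptional repressor, rose in PC3 by 2.92 and had -0.24 in LNCaP without passing, whereas TXNIP, a thioredoxin-binding alpha-arrestin, rose in both lines and more in LNCaP, by 1.36 in LNCaP and 0.71 in PC3.

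As a description, the median size of the difference between the lines in mean log2(FPKM + 1) was 0.757 under erastin and 0.528 under DMSO over 11823 genes, and 0.732 under erastin and 0.517 under DMSO over the 5499 genes with the same length in both tables. It was wider under erastin for 7390 genes (62.5%). The tables were scaled separately, so this comparison has no test.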
